A study of Mus musculus with 6 samples.

Results

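The genes described here encode subunits of eIF3, the largest of the eukaryotic translation initiation factors. Of 10 listed subunit genes, Eif3a, Eif3b, Eif3c, Eif3d, Eif3e, Eif3g, Eif3h, Eif3i, Eif3l and Eif3m, 9 had a probe set carrying their symbol alone and were measured among 19937 genes in all; Eif3g was not analysed here. They were chosen by symbol and not by a rule on their values, but with earlier results of these data known. The subunit genes Eif3f and Eif3k, not on that list, are given beside them. RNA came from the polysome fractions, pooled for each sample, of the mouse clone #483, a T-ALL (a leukaemia of immature T cells) of strain C57BL6. One group of 3 samples received 4EGI-1 at 100 µM for 2 h. This compound keeps eIF4E, which holds the mRNA cap, from binding eIF4G, which bridges it to the ribosome. The other group of 3 samples is titled untreated, while the protocol and the series title name the solvent DMSO for it. The design text calls the samples biological replicates; all come from 1 leukaemia clone. Each sample was hybridised to 1 array, and values are log2 signals.

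eIF3 binds the small (40S) ribosomal subunit, keeps it apart from the large subunit and gathers eIF1, eIF2 with the initiator tRNA, and eIF5 into the preinitiation complex. It also contacts eIF4G, and so ties the cap-bound eIF4F complex to the ribosome. In mammals an octamer of PCI- and MPN-domain subunits (a, c, e, f, h, k, l and m) forms the core, to which a module of b, g and i, the subunit d and the loosely held j attach. The proteasome lid and the COP9 signalosome are built from the same 2 kinds of domain.

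After 4EGI-1, the polysomal mRNAs of Eif3c, Eif3a and Eif3d rose, and none of the other 6 listed subunits passed the test. Eif3c was 1.67-fold, Eif3a 1.45-fold and Eif3d 1.23-fold of its control level. The other 6 stood between 0.936 and 1.03 times control. The deposited values were equalised between arrays, so all these levels are relative to the other polysomal mRNAs. A change in the total amount of polysomal mRNA would not show. In the test used throughout (limma across all genes, Benjamini-Hochberg adjusted p under 0.05), 3 of 9 listed genes were higher and 0 lower; at an unadjusted p under 0.05 the count lower was also 0. The background was 11.5% of all genes higher and 11.5% lower, or 22.9% in either direction. The median log2 difference was 0.03 over the 9 genes and -0.03 over all genes. RNA outside polysomes was not analysed here, so a change in mRNA amount and a change in the share bound to ribosomes cannot be told apart, nor can fewer cells of a type and less RNA per cell.

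The sequences next to the annotated starts of 6 subunit genes are shown to set the 3 genes that rose beside 3 that did not pass. They are RefSeq sequences of build GRCm38.p6, 100 bases before to 20 bases after the start, 5′ to 3′ on the gene's strand. Capitals mark whole matches, on either strand, to 1 of 7 motifs: CCGGAAG (ETS-type), CACGTG (E-box), GGGCGG (Sp1-type GC box), CCAAT (the CCAAT box), TATAAA (the TATA box), TGATGNAA (ATF4-type) and AAGATGGC (YY1-type). None of these motifs contains another.
Eif3a (chr19:60790674-60790793, minus strand): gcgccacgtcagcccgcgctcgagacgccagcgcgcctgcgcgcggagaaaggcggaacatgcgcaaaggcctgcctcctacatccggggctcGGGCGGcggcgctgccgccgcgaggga
Eif3c (chr7:126566347-126566466, minus strand): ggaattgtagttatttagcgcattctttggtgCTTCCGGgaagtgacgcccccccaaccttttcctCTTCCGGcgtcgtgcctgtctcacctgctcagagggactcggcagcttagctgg
Eif3d (chr15:77970805-77970924, minus strand): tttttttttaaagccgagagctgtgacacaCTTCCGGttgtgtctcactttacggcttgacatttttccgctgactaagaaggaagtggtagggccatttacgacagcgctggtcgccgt
Eif3l (chr15:79075123-79075242, plus strand): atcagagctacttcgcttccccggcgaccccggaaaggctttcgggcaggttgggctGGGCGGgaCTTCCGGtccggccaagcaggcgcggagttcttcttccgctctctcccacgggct
Eif3m (chr2:105017008-105017127, minus strand): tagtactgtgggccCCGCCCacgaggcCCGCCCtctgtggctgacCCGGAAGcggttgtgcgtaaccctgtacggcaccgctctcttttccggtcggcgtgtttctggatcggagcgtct
Eif3f (chr7:108934315-108934434, plus strand): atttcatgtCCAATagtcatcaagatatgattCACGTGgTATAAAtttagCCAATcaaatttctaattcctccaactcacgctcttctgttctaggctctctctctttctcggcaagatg

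Of the 14 eIF3 subunit genes looked up, 10 had a window of 300 bases (250 before and 50 after the start) in the RefSeq table, 7 of them listed genes. The ETS-type letters lay in 5 of these 10 windows, against 8.9% of all 32851 windows. They were in Eif3c and Eif3d, which rose, and in Eif3l and Eif3m, which did not pass, so these letters did not separate the responses; Eif3g held them too. Eif3a, which rose, had no ETS-type match but a GC box next to its start and an E-box at position 23 after it, beyond the stretch shown. The E-box was in 3 of the 10 windows (7.2% of all windows) and the GC box in 7 (35.7% of all). CCAAT was in 3 (37.4% of all), the TATA box in 2 (13.6%), the YY1-type letters in 1, Eif3f, where they run past the stretch shown (2.7%) and the ATF4-type letters in 0 (4.0%).

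Messages of many ribosomal proteins and translation factors start with a terminal oligopyrimidine (TOP) tract, and those of Eif3e, Eif3f and Eif3h are counted among them. The longest run of C and T within 20 bases of the annotated start was 15 bases in Eif3f, a length reached by 1.5% of all windows. It was 11 bases in Eif3m and 10 in Eif3l, reached by 5.2% and 7.4% of windows. In the genes that rose it was 4 bases for Eif3c and 3 for Eif3a and for Eif3d, lengths that 78.6% and 93.7% of windows reached. Short runs were not particular to those genes: Eif3b, which did not pass, had 5 bases (57.5% of windows), as had Eif3g, and Eif3k had 7 (24.3%). The Eif3j1 window had 4. Annotated starts can lie some bases from the starts used in these cells, so the runs describe the annotation only.

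The PCI subunits are the scaffold of the core. Eif3a encodes the largest subunit, whose long arm holds the b, g and i module. Its log2 signals were 11.93, 11.92 and 11.93 in control replicates 1 to 3 and 12.50, 12.44 and 12.44 with 4EGI-1. The groups lay far apart compared with the spread within each. The difference was 0.53 ± 0.06 (SE; 95% interval 0.40 to 0.67; limma adjusted p = 0.000414), the 874th largest rise of the 19937 genes.

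Eif3c encodes the subunit whose N-terminal part binds eIF1 and eIF5, and with d and e it makes contact with eIF4G. Its signals were 11.13, 11.26 and 11.31 in controls and 12.00, 11.91 and 12.01 with 4EGI-1. Every treated array was above every control array, the widest gap of the listed genes. The difference was 0.74 ± 0.07 (SE; 95% interval 0.58 to 0.90; limma adjusted p = 0.000238), which ranked 427th among all rises.

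Eif3e, known also as Int6, is the other eIF4G-contacting PCI subunit in the core. Its signals were 11.92, 11.76 and 11.85 in controls and 11.79, 11.85 and 11.85 with 4EGI-1, all treated values lying inside the control range. The difference was -0.02 ± 0.07 (SE; 95% interval -0.17 to 0.14; limma adjusted p = 0.901). Eif3l encodes a PCI subunit of the core that budding yeast lacks. Its signals were 12.33, 12.16 and 12.31 in controls and 12.34, 12.25 and 12.29 with 4EGI-1, and the groups overlapped. The difference was 0.03 ± 0.07 (SE; limma adjusted p = 0.827).

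Eif3m, a PCI subunit likewise absent there, had the lowest log2 difference of the listed genes. Its signals were 12.36, 12.31 and 12.23 in controls and 12.25, 12.22 and 12.15 with 4EGI-1, and 1 treated array reached into the control range. The difference was -0.10 ± 0.06 (SE; 95% interval -0.24 to 0.05; limma adjusted p = 0.361). This probe set, the brighter of 2 with that symbol, lies by its number among genes of chromosome 1 (10 of its 10 nearest annotated neighbours), whereas Eif3m is on chromosome 2. The dimmer probe set, with 10 of 10 neighbours on chromosome 2, differed by -0.06 ± 0.07 (SE; limma adjusted p = 0.624 in a fit over all probe sets). Which transcripts the brighter one detects was not tested. Every other probe set with a single eIF3 symbol had all 10 neighbours on its gene's own chromosome.

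**Figure D1:**
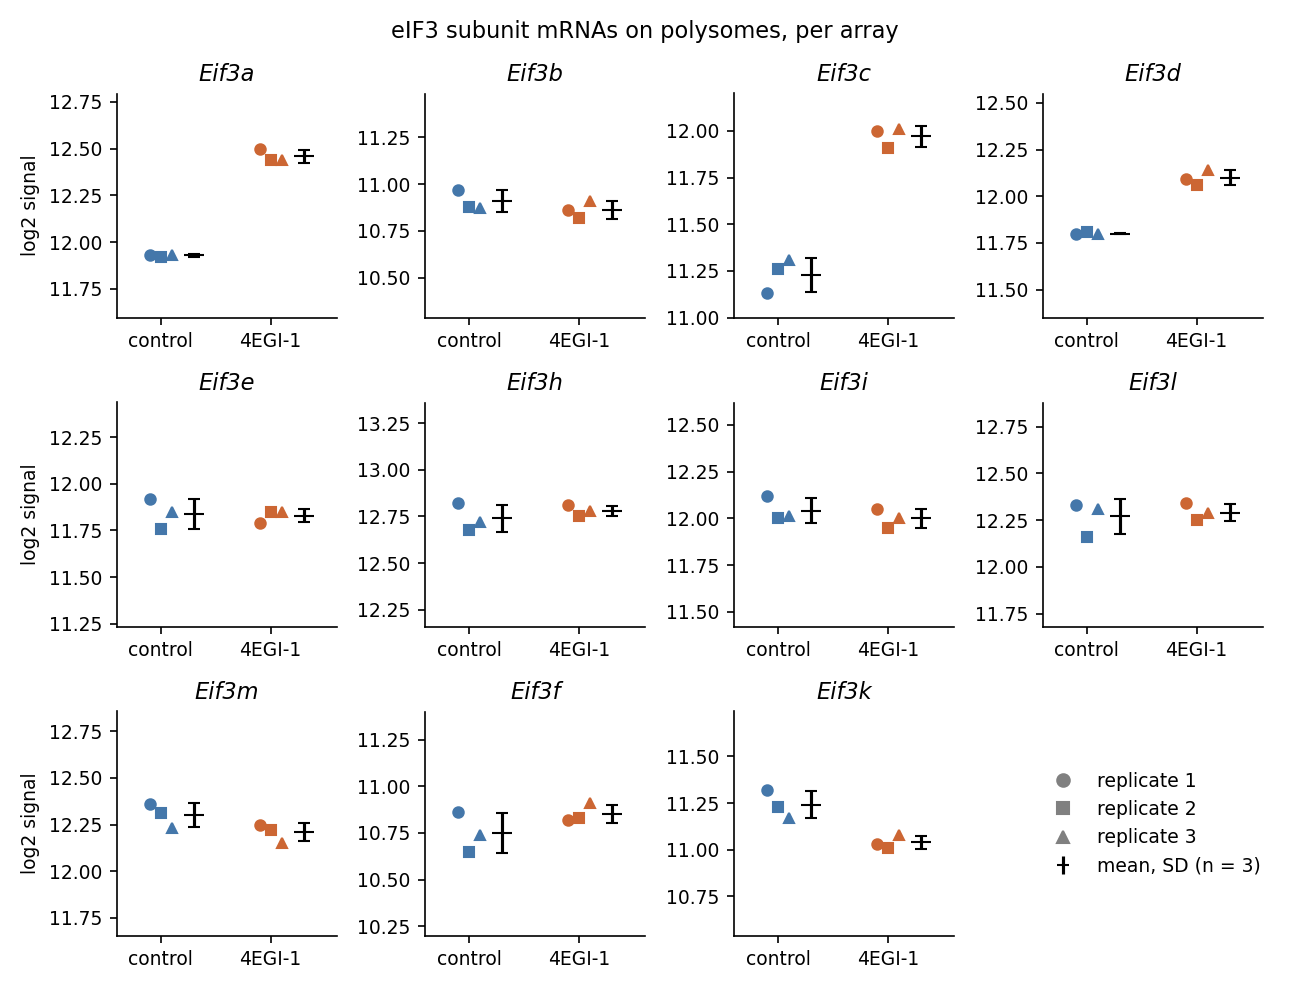
Log2 signal of 11 eIF3 subunit mRNAs on each array (vertical axis, each panel spanning the same 1.2 units), with control arrays in blue and 4EGI-1 arrays in orange. Points are single arrays, marked by replicate number, and black bars are the mean with SD (n = 3). The groups separate upward in Eif3a, Eif3c and Eif3d and downward in Eif3k.

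Of the 6 measured PCI subunits, counting Eif3k, 2 rose, 0 fell and 4 did not pass. Eif3k, the smallest core subunit, was at 11.32, 11.23 and 11.17 in controls and 11.03, 11.01 and 11.08 with 4EGI-1. The treated arrays were all below the controls, a separation found in 37.9% of all genes in either direction and in 20.8% downward. The difference was -0.20 ± 0.06 (SE; 95% interval -0.35 to -0.05), with a limma adjusted p = 0.0574. It passed in 2 of 15 alternative settings, with a limma adjusted p of 0.0159 where dimmer genes were left out and 0.00338 under a trended robust variance prior; over all 15 it ran from 0.00338 to 0.159.

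The MPN subunits are h and f, relatives of metalloproteases of the proteasome lid and the COP9 signalosome. Eif3h was at 12.82, 12.68 and 12.72 in controls and 12.81, 12.75 and 12.78 with 4EGI-1, with overlapping groups. The difference was 0.04 ± 0.06 (SE; limma adjusted p = 0.712). Eif3f was at 10.86, 10.65 and 10.74 in controls and 10.82, 10.83 and 10.91 with 4EGI-1. Its control arrays spread more than its treated ones, and the difference was 0.10 ± 0.07 (SE; limma adjusted p = 0.392).

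In the module of b, g and i, neither measured gene passed. Eif3b, a scaffold with an RNA recognition motif and a propeller domain, was at 10.97, 10.88 and 10.87 in controls and 10.86, 10.82 and 10.91 with 4EGI-1 (difference -0.04 ± 0.06, SE; limma adjusted p = 0.702). Eif3i, a WD40 propeller protein held by b, was at 12.12, 12.00 and 12.01 in controls and 12.05, 11.95 and 12.00 with 4EGI-1 (difference -0.04 ± 0.07, SE; limma adjusted p = 0.698). In both genes the groups overlapped.

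Eif3d sits outside the core near the mRNA exit channel and can itself bind the cap of certain mRNAs. Its signals were 11.80, 11.81 and 11.80 in controls and 12.09, 12.06 and 12.14 with 4EGI-1. The groups did not overlap, and the controls had an SD of 0.003. The moderated fit, which borrows spread from all genes, gave a difference of 0.29 ± 0.06 (SE; 95% interval 0.16 to 0.43; limma adjusted p = 0.0072). It ranked 2005th among all rises. The j subunit, which lies in the decoding centre of the 40S subunit, has 2 gene copies, Eif3j1 and Eif3j2, and both probe sets carry both names. They differed by -0.07 ± 0.07 and 0.01 ± 0.06 (SE; limma adjusted p = 0.592 and 0.972 over all probe sets), so the copies were not separated and neither probe set passed.

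**Figure D2:**
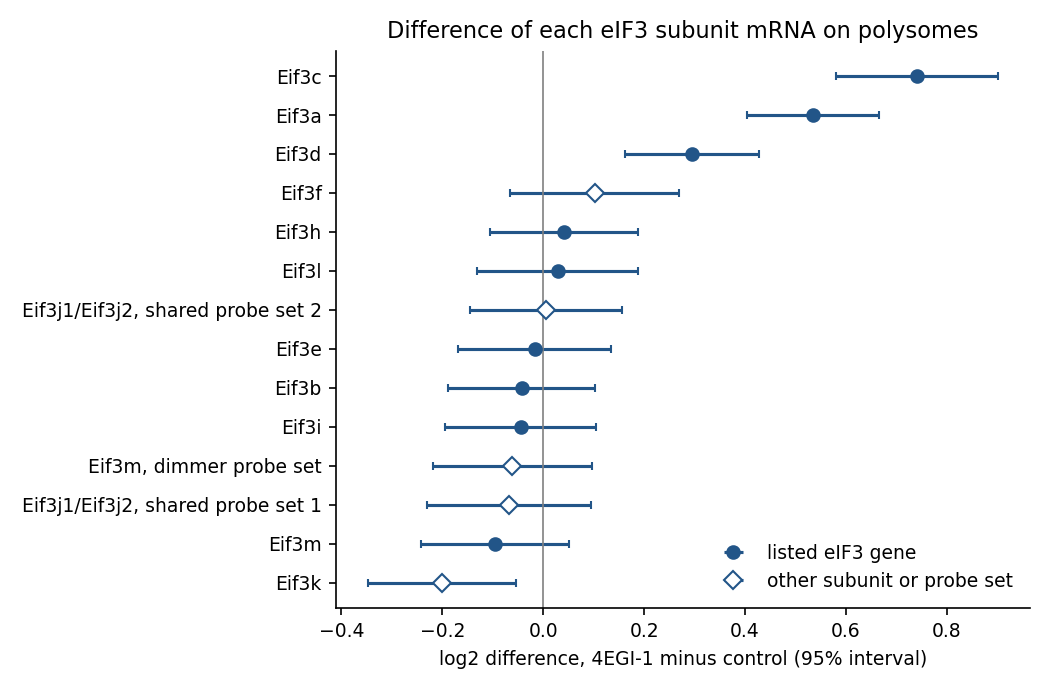
Log2 difference, 4EGI-1 minus control (horizontal axis), with its 95% interval, for the listed eIF3 genes (filled circles) and for other subunits and probe sets (open diamonds), sorted by size. Eif3c, Eif3a and Eif3d lie right of 0 with intervals that exclude it; Eif3k lies at -0.20, and its adjusted p was 0.0574. The dimmer Eif3m probe set and the shared Eif3j1/Eif3j2 probe sets come from a fit over all probe sets.

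For the 6 listed genes that did not pass, the 95% intervals bound the size of an undetected change. Together they ran from 0.845 to 1.14 times the control level. The 1.23-fold, 1.45-fold and 1.67-fold levels of Eif3d, Eif3a and Eif3c lie above every one of them. The same fit split the genes, so this is no separate support. The lower bounds of Eif3a, Eif3c and Eif3d were 1.32-fold, 1.49-fold and 1.12-fold. Control and treated arrays did not overlap in 3 of the 9 listed genes, all upward. Over all genes this held for 37.9% in either direction and for 17.0% upward. In either direction the listed genes were thus near the share of all genes.

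The 3 that rose can also be read against the other subunits on the same array, which removes any scaling between arrays. Relative to the mean of the 6 listed genes that did not pass, Eif3a was at -0.16, -0.04 and -0.07 in controls and at 0.49, 0.46 and 0.45 with 4EGI-1, a shift of 0.56. Eif3c went from -0.95, -0.70 and -0.69 to -0.02, -0.06 and 0.02, a shift of 0.76. Eif3d went from -0.28, -0.16 and -0.20 to 0.08, 0.09 and 0.14, a shift of 0.32. Relative to the other subunits, all 3 were higher on every treated array than on every control array. These genes were grouped after their values were seen, and no test was made. Among the 3, the gap of Eif3c to Eif3a went from -0.80, -0.65 and -0.63 to -0.50, -0.53 and -0.43, and that of Eif3a to Eif3d from 0.13, 0.11 and 0.13 to 0.41, 0.38 and 0.31. Neither gap overlapped between groups, and Eif3c rose most and Eif3d least of the 3; that order was not tested. Such values compare a gene with itself across arrays; the level of one probe set against another has no meaning on these arrays.

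**Figure D3:**
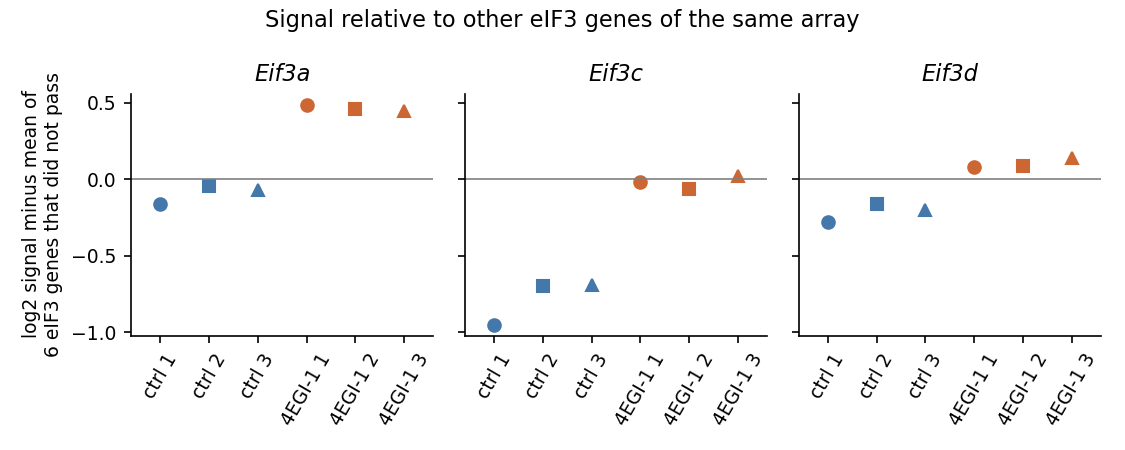
Log2 signal of Eif3a, Eif3c and Eif3d minus the mean of the 6 listed eIF3 genes that did not pass (vertical axis) on each of the 6 arrays (horizontal axis; controls blue, 4EGI-1 orange). All 4EGI-1 arrays lie above all control arrays in the 3 panels, by a mean of 0.56, 0.76 and 0.32.

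**Figure D4:**
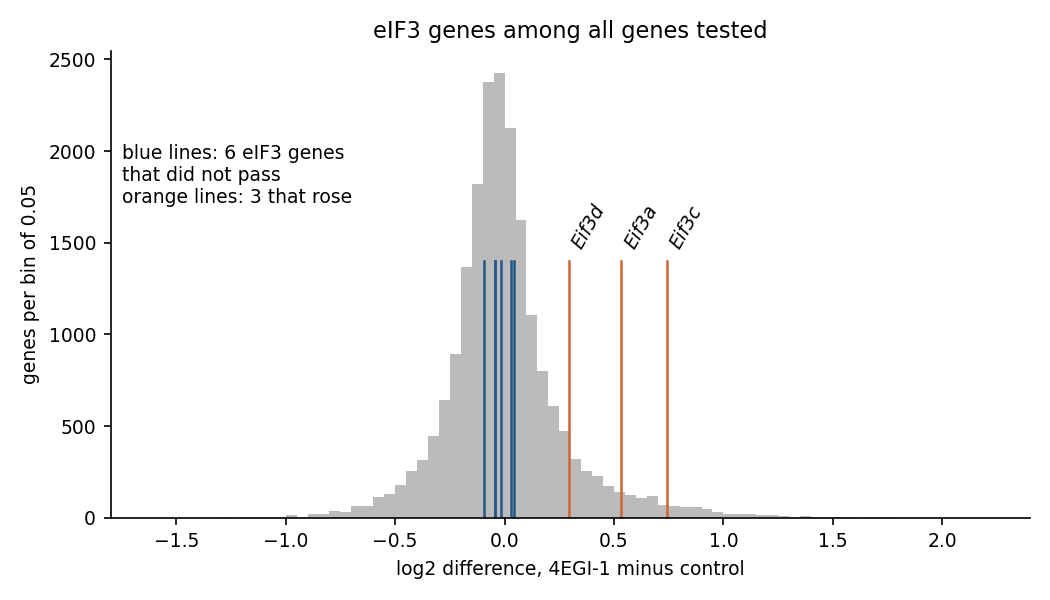
Number of genes per bin of 0.05 (vertical axis) by log2 difference, 4EGI-1 minus control (horizontal axis), over 19937 genes, in grey. Orange lines are the 3 listed eIF3 genes that rose, in the right flank of the distribution; blue lines are the 6 that did not pass, near its centre.

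Partners of eIF3 in the preinitiation complex moved in both directions. Among 15 genes with a value, 2 rose, 4 fell and 9 did not pass, beside 11.5% of all genes higher and 11.5% lower. The share that rose was near that of all genes. The median log2 difference was -0.03, as over all genes. Eif5b, the GTPase that joins the subunits, rose by 0.89 ± 0.06 and Dhx29, a helicase that works with eIF3 on structured leaders, by 0.67 ± 0.075 (SE; limma adjusted p = 8.26e-05 and 0.000503). Eif1b, a paralogue of the start-codon factor eIF1, fell by 0.55 ± 0.06 and Denr, which acts in recycling and reinitiation, by 0.33 ± 0.06 (SE; limma adjusted p = 0.000326 and 0.00502). Eif5, which binds eIF3c, differed by -0.03 ± 0.06 (SE; limma adjusted p = 0.826).

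On the eIF4F side, which meets eIF3 through eIF4G, 2 of 18 measured genes rose, 8 fell and 8 did not pass, with a median of -0.18. The list named 21 genes, and Eif4g1 was not among the 18 with a value. Over all genes 11.5% were higher and 11.5% lower, so the share that rose was near that background. Eif4g3, an eIF4G paralogue, rose by 0.62 ± 0.06 and Eif4ebp1, a repressor of eIF4E, by 0.41 ± 0.07 (SE, limma adjusted p = 0.00028 and 0.00312). In contrast, its paralogue Eif4ebp2 fell by 0.47 ± 0.06 and Eif4e by 0.28 ± 0.06 (SE, limma adjusted p = 0.00123 and 0.0148). Probe-set neighbours were checked for eIF3 genes only. Which transcripts the Eif4e probe set and the others of this list detect was not tested. Eif4e2, a cap-binding relative of eIF4E, fell by 0.79 ± 0.08, and Mknk2, a kinase that docks on eIF4G to phosphorylate eIF4E, fell by 0.66 ± 0.075 (SE; limma adjusted p = 0.000342 and 0.000543).

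In the sister complexes the genes that passed were all lower. The background was 11.5% of all genes higher and 11.5% lower, so 0 rises among 9 or 10 genes is near it. In the proteasome lid 0 of 9 measured genes rose, 3 fell and 6 did not pass (median -0.02), with Sem1, its smallest subunit, down by 0.52 ± 0.08 and Psmd6, a PCI subunit, by 0.30 ± 0.06 (SE; limma adjusted p = 0.00181 and 0.00907). In the COP9 signalosome 0 of 10 rose, 4 fell and 6 did not pass (median -0.13), with its small subunit gene Cops9 down by 0.40 ± 0.10 and Cops6, an MPN subunit, by 0.26 ± 0.06 (SE; limma adjusted p = 0.0202 and 0.0196). The listed eIF3 genes had 3 of 9 up and 0 down. With so few genes these counts cannot show that the complexes differ, and the difference was not tested.

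Among the 40S ribosomal proteins, the surface on which eIF3 lies, 0 of 22 measured genes rose, 9 fell and 13 did not pass (median -0.16). Over all genes 11.5% were higher and 11.5% lower. Rps28 fell by 0.68 ± 0.08 and Fau, which encodes a 40S protein fused to a ubiquitin-like protein, by 0.50 ± 0.06 (SE, limma adjusted p = 0.000587 and 0.000878). The check of probe-set neighbours was made for eIF3 genes only, so which transcripts the 40S probe sets detect was not tested. Of 9 other TOP mRNAs 1 rose, 0 fell and 8 did not pass (median -0.11). The one that rose was Eef2, the translocation factor, by 0.53 ± 0.06 (SE; limma adjusted p = 0.000546), while Eef1a1 differed by 0.00 ± 0.06.

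**Figure D5:**
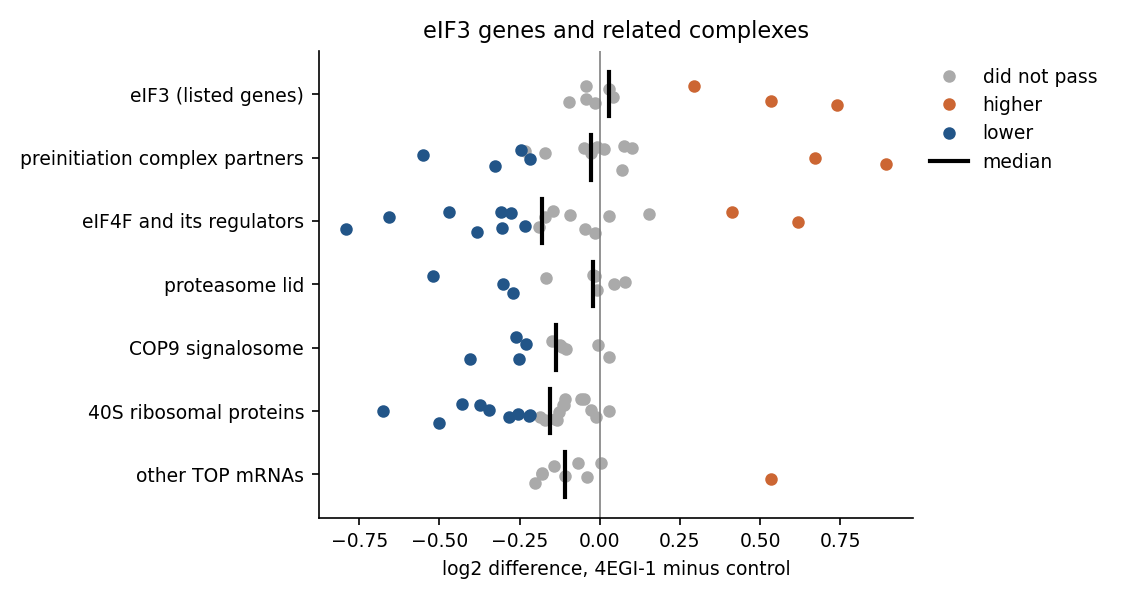
Log2 difference, 4EGI-1 minus control (horizontal axis), of each measured gene in 7 lists (rows); points are genes, orange for higher, blue for lower and grey for those that did not pass, and black bars are list medians. The eIF3 row has 3 points on the right and none called lower, while the proteasome lid, COP9 signalosome and 40S rows have called points on the left only.

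Array medians lay between 6.38 and 6.43 (34760 probe sets each). Precision is limited by having only 3 arrays in each group. The 9 listed genes were bright, each at or above the 94.4th percentile of mean signal among genes tested. The mean of 9 T-cell markers was 10.68 to 10.71 on control arrays and 10.50 to 10.54 on 4EGI-1 arrays. In 8 of the 9 the groups did not overlap, beside 37.9% of all genes, and their median log2 difference was -0.19; the part of this in the eIF3 values was not tested. Over all arrays the mean was 5.20 to 5.38 for 3 B-cell, 5.75 to 5.97 for 5 myeloid, 6.58 to 6.80 for 3 erythroid and 6.97 to 7.17 for 4 stromal and endothelial markers. Pecam1, the brightest of the last list, was at the 78.3rd percentile of mean signal, and Cd5, the dimmest T-cell marker, at the 53.8th. Of the 9 T-cell markers 1 rose (Rag1) and 3 fell (Cd2, Cd3e and Ptcra), beside 11.5% of all genes higher and 11.5% lower. In the limma fit 0 of the markers of other cell types passed. Among those, only Epor had an unadjusted limma p under 0.05 (0.0252).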

How the data were processed

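The authors deposited a log2 signal for every probe set and array. Per the submitters' processing notes these come from RMA, which equalises the arrays; its version and settings were not given in the sources used here. Groups and replicate numbers came from the sample titles. The platform annotation lists 22961 of 34760 probe sets, 21640 with 1 symbol; symbols were updated by Entrez identifier (21553 matched) through RefSeq GRCm38.p6. Each gene was read from its brightest probe set over 6 arrays, giving 19937 genes.

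Differences (4EGI-1 minus control) were fitted over all genes in R 4.3.3 with limma 3.58.1 (lmFit, eBayes), without filter or covariate, two-sided. SE is the moderated standard error on 8.15 degrees of freedom, and intervals are 95%. With 3 samples a group, p-values measure the spread between these samples. The script was tested on simulated data. Genes named were all eIF3 subunits and, per list, up to 2 of the largest changes that passed in each direction. Eif5, Eef1a1, Epor, Eif4e and Eif4ebp2 were added after their values were seen. The members and lists were chosen with earlier results of these data known. Same-numbered samples had deviations that correlated at 0.061, 0.107 and -0.021, so the numbers were not treated as pairs.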

Additional observations from a re-analysis of the deposited data

How the results depend on the processing

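Each sample was left out in turn, and 9 other settings were tried: a replicate block, a threshold of 0.01, only genes at or above the median signal, every probe set, means of probe sets, quantile normalization, arrays centred on their medians, array weights, and a trended robust prior. In all 15 settings 3 listed eIF3 genes were higher and 0 lower, and each of the 9 kept its side of the threshold. The difference of Eif3a ranged from 0.51 to 0.59, that of Eif3c from 0.69 to 0.78 and that of Eif3d from 0.27 to 0.33, with a highest adjusted p of 0.00335, 0.0021 and 0.0302. At an adjusted p under 0.01, 1488 genes were higher and 1248 lower, against 2286 and 2287, because the threshold is stricter. Leaving out 1 sample gave 1857 to 2082 genes higher and 1663 to 1836 lower. With the replicate block, 2097 genes were higher and 1974 lower, and the eIF3 calls were the same; 4 of 6 samples correlated best with their own number, a hint from the data and not from the design. The signs of Eif3e, Eif3i and Eif3l, all within their error of 0, turned in some settings. Bright signals near the top of the scale can be compressed, which was not tested.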
